A study of Mus musculus with 11 samples.

Results

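The set described here holds 8 genes, namely Rgs1, Rgs2, Rgs10, Rgs14, Rgs16, Rgs18, Rgs19 and Gem, each taken from the array probe sets annotated with that symbol alone. A probe set was matched for 7 of the 8, with 1 probe set each, out of 18755 genes measured, and Rgs10 was not analysed here. Transcripts were measured with whole-transcript gene arrays in macrophages of C57Bl/6 wild-type mice, obtained by culture of marrow cells for 1 week with 5 ng/ml macrophage colony-stimulating factor. The cells of 4 arrays received 100 ng/ml LPS (lipopolysaccharide, a bacterial cell wall component that activates Toll-like receptor signalling) and the lipid mediator prostaglandin E (PGE, 10 µM) for 1 hour, those of 3 arrays received the same LPS alone for 1 hour, and those of 4 arrays were untreated. Cells given PGE without LPS are not among these groups, so the PGE comparison below holds only on top of LPS. Neither the type of prostaglandin E nor the age of the mice is stated, nor whether replicates came from separate mice or cultures, so p-values cover the spread among these samples, which may be technical.

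RGS proteins (regulators of G protein signalling) bind active, GTP-loaded alpha subunits of heterotrimeric G proteins, mainly those of the Gi and Gq classes. They speed the return of these subunits to the inactive form, which shortens the signal of receptors coupled to them. Chemokine receptors and prostaglandin E receptors are G protein-coupled receptors. Those encoded by Ptger2 and Ptger4 act through the stimulatory alpha subunit, which is of another class, to raise cyclic AMP. Gem is not an RGS protein but a small Ras-like GTPase of the RGK family, known for inhibiting voltage-gated calcium channels.

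Values are log2 expression levels, and a step of 1 means 2-fold. Each change is a log2 fold change ± SE from limma over all 11 arrays, and passing means an adjusted p (Benjamini-Hochberg, over all 18755 genes) under 0.05. Where a call is said to end under some of the alternative settings, the 2-fold threshold is not counted among them. Levels of the RGS genes and Gem were not set against each other, since each probe set has its own response. Marker averages, level boundaries over all genes and sets of genes of like level are rough guides for the same reason. The cells carried macrophage markers: the 12 measured markers, among them Csf1r (the receptor for the growth factor used), averaged 11.4 in every LPS plus PGE array, 11.3 to 11.4 in LPS arrays and 11.2 to 11.3 in untreated arrays. This average includes Cd14, whose mean level was 12.71 with LPS plus PGE, 12.13 with LPS and 10.49 untreated. In each comparison, 10 of the 12 markers did not pass. A lower level in such bulk RNA cannot tell fewer cells of a type from less RNA per cell. Arrays of the same group correlated across genes at 0.996 to 0.998.

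The genes moved in distinct ways. Adding PGE to LPS was accompanied by a higher level of Rgs2 and of Gem and a lower level of Rgs16, while LPS alone had left Rgs2 lower and Rgs16 higher than in untreated cells. Rgs1 was higher with either treatment than in untreated cells. Rgs14, Rgs18 and Rgs19 passed in LPS plus PGE against untreated arrays, where each was lower, and not in the other 2 comparisons.

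**Figure D1:**
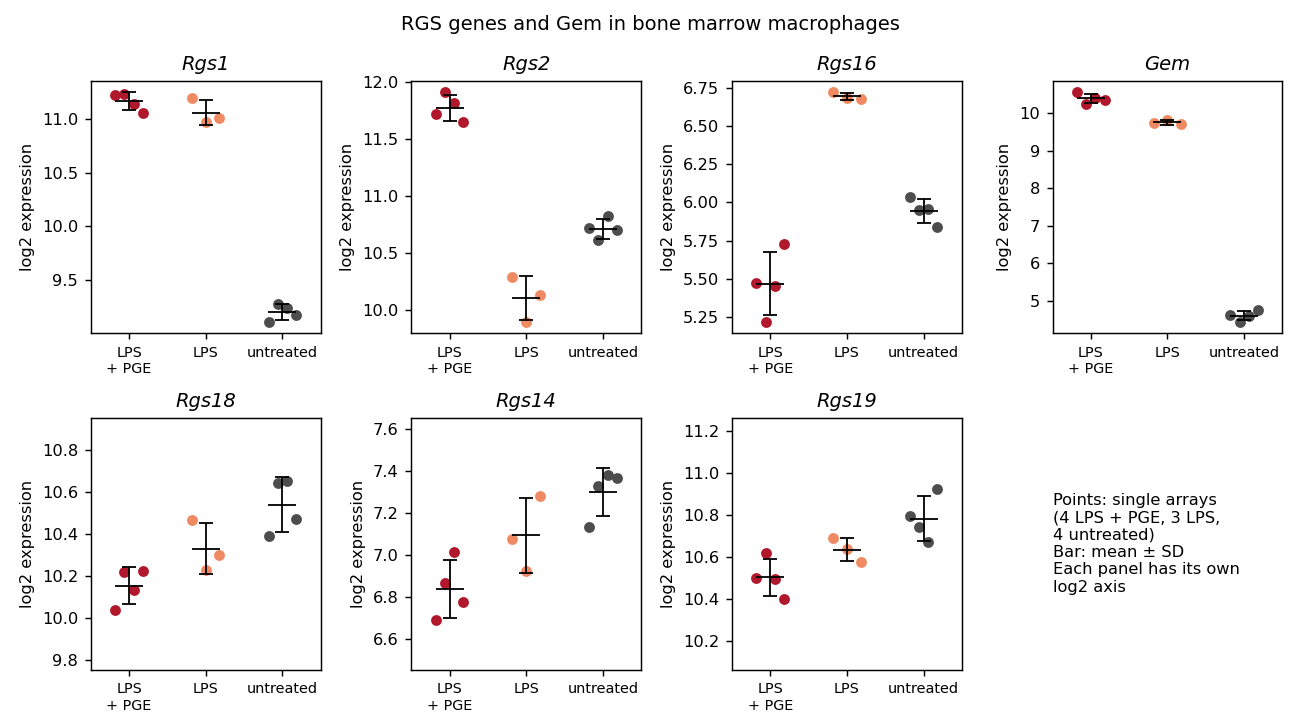
Log2 expression of the 7 measured genes (vertical axis, its own range in each panel) in single arrays of the LPS plus PGE, LPS and untreated groups (points), with mean and SD (bars). Rgs2 lies highest with LPS plus PGE (11.65 to 11.91) and lowest with LPS alone (9.89 to 10.29), and Rgs16 shows the opposite order.

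The comparison of LPS plus PGE with LPS arrays addressed what PGE alters in LPS-stimulated macrophages. Of the 7 genes, 3 passed, against 24.7% of all genes: Rgs2 and Gem were higher (11.9% of all genes passed as higher) and Rgs16 was lower (12.9% passed as lower). Changes of at least 2-fold were held by Rgs2 and Rgs16, against 0.714% of all genes. The LPS plus PGE and LPS arrays did not overlap for 4 of the 7 genes, against 33.9% of all genes.

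Rgs2 encodes a small RGS protein that prefers alpha subunits of the Gq class and that is also known to restrain adenylyl cyclase, the enzyme that makes cyclic AMP. Its level was 11.72, 11.91, 11.82 and 11.65 in the LPS plus PGE arrays, 10.29, 9.89 and 10.13 in the LPS arrays, and 10.72, 10.61, 10.82 and 10.70 in the untreated arrays. All 3 groups lay apart, with LPS plus PGE at the top and LPS at the bottom. Rgs2 rose by 1.67 ± 0.096 (3.18-fold) in LPS plus PGE arrays against LPS arrays, with a limma adjusted p of 7.34e-07, the 38th largest rise of 18755 genes. LPS arrays against untreated arrays gave a fall of -0.61 ± 0.096 (1.52-fold lower, limma adjusted p = 0.00105). LPS plus PGE arrays stood above untreated arrays too, by 1.06 ± 0.089 (2.09-fold, limma adjusted p = 2.56e-06).

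Rgs16 encodes another small RGS protein, which acts on Gi and Gq class subunits and is known to dampen chemokine receptor signalling in leukocytes. It measured 5.47, 5.22, 5.45 and 5.73 in LPS plus PGE arrays, 6.72, 6.68 and 6.68 in LPS arrays, and 6.03, 5.95, 5.96 and 5.84 in untreated arrays. Here the LPS arrays were the highest and the LPS plus PGE arrays the lowest, again with no overlap between any groups. Rgs16 fell by 1.23 ± 0.099 on the log2 scale (2.34-fold lower, limma adjusted p = 9.15e-06) in LPS plus PGE arrays against LPS arrays, the 15th largest fall of all genes. With LPS alone it rose by 0.75 ± 0.099 (1.68-fold, limma adjusted p = 0.000237) against untreated arrays. With LPS plus PGE it was lower than untreated by -0.48 ± 0.091 (1.39-fold lower, limma adjusted p = 0.002).

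The promoter windows of these 2 genes are shown because their levels moved in opposite directions when PGE was added. The windows run from 250 bases before to 50 bases after the RefSeq transcription start and come from RefSeq on build GRCm38.p6, with Rgs2 at chr1:144004100-144004399 on the minus strand and Rgs16 at chr1:153740103-153740402 on the plus strand. Capitals mark matches to the searched motifs, 5′ to 3′ along the gene.
Rgs2: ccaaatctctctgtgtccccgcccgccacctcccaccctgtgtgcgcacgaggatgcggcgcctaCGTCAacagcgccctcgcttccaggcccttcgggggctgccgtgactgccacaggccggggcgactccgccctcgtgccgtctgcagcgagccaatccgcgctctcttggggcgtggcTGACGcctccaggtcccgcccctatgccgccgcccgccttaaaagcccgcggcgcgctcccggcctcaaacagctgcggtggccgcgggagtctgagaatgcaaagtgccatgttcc
Rgs16: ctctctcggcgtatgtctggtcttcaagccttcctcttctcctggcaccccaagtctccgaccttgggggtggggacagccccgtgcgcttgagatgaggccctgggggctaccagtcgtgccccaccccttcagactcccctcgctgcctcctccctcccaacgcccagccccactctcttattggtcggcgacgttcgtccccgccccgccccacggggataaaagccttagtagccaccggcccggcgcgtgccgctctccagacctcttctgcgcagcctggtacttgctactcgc
The motifs searched were the full cyclic AMP response element TGACGTCA, its short core TGACG, the AP-1 site TGANTCA and a kappa-B-like site (GGG, any 2 bases, then TTTCC), each on both strands, and the TATA box TATAAA on the gene's own strand. The short core lies within the full element, so a full match would count as a match to the core as well. In Rgs2 the core matched at 2 places, as CGTCA (the reverse strand) from -185 to -181 and as TGACG from -67 to -63, counted from the start site. In Rgs16 none of these motifs matched. The core is present in 20.8% of the 32851 RefSeq promoter windows of this length, the full element in 1.79%, the AP-1 site in 7.81%, the kappa-B-like site in 1.63% and the TATA box in 8.32%. A match is a run of letters and was not measured as a bound site. Windows were matched for 3 of the 7 genes, and the 3 windows of Rgs19 held none of these motifs.

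Gem stood at 10.55, 10.24, 10.41 and 10.36 in LPS plus PGE arrays, at 9.72, 9.83 and 9.72 in LPS arrays and at 4.61, 4.44, 4.59 and 4.74 in untreated arrays. Every LPS plus PGE array was above every LPS array, and both groups were far above the untreated arrays. Against LPS alone, Gem was higher with LPS plus PGE by 0.63 ± 0.086 (1.55-fold, limma adjusted p = 0.000594). The rise against untreated arrays was 35.8-fold with LPS and 55.6-fold with LPS plus PGE, ranks 16 and 14 among the rises of all genes. Array background was not measured here, and the untreated level of Gem lay near the boundary of the lowest tertile of genes (4.31).

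Rgs1 encodes a small RGS protein that limits chemokine-driven migration of lymphocytes and other leukocytes. Its level was 11.23, 11.24, 11.15 and 11.06 in LPS plus PGE arrays, 11.20, 10.98 and 11.01 in LPS arrays, and 9.11, 9.27, 9.24 and 9.17 in untreated arrays. The LPS plus PGE and LPS arrays overlapped, and all of them were above all untreated arrays. The difference between LPS plus PGE and LPS arrays was 0.11 ± 0.074, with a 95% interval from -0.06 to 0.27, and did not pass (limma adjusted p = 0.312). Rgs1 rose by 1.86 ± 0.074 (3.64-fold, limma adjusted p = 3.55e-09) with LPS and by 1.97 ± 0.069 (3.92-fold, limma adjusted p = 6.68e-10) with LPS plus PGE against untreated arrays. With array medians made equal, which moved the median of all genes to 0.15, the Rgs1 difference between LPS plus PGE and LPS was 0.26 and passed (limma adjusted p = 0.0255).

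**Figure D2:**
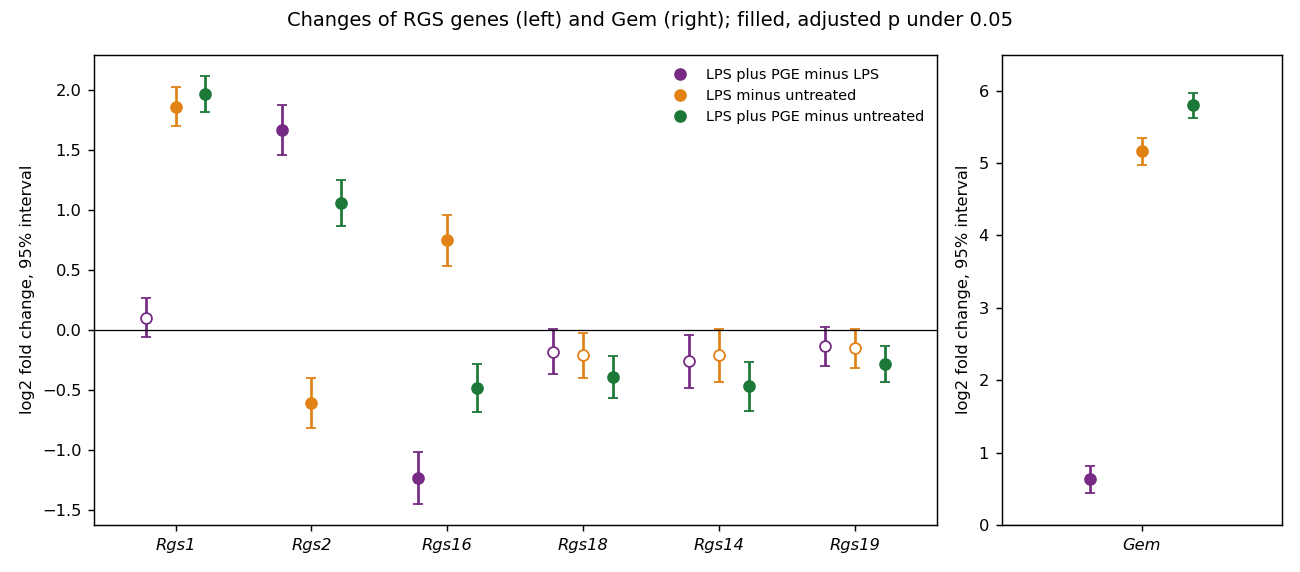
Log2 fold changes (vertical axes) with 95% intervals for the 6 RGS genes and, on its own axis, Gem, in each of the 3 comparisons (colours). Filled points passed at an adjusted p under 0.05. Rgs2 and Rgs16 lie on opposite sides of 0 in LPS plus PGE minus LPS (1.67 and -1.23) and in LPS minus untreated (-0.61 and 0.75).

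The comparison of LPS with untreated arrays asked what an hour of LPS alone alters. Of the 7 genes, 4 passed, against 13.2% of all genes. Gem, Rgs1 and Rgs16 were higher (6.55% of all genes passed as higher), and Rgs2 was lower (6.69% passed as lower). Of these, Gem and Rgs1 changed at least 2-fold, against 1.93% of all genes. The LPS and untreated arrays did not overlap for 4 of the 7, against 23.1% of all genes.

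LPS plus PGE arrays against untreated arrays showed the combined stimulus. All 7 measured genes passed, against 31.7% of all genes, with 3 higher (Gem, Rgs1 and Rgs2; 13.8% of all genes passed as higher) and 4 lower (Rgs14, Rgs16, Rgs18 and Rgs19; 17.9% passed as lower). Those 3 rises were at least 2-fold, as were the changes of 2.97% of all genes. The LPS plus PGE and untreated arrays did not overlap for 7 of the 7, against 35.1% of all genes. The 2 comparisons with untreated cells share the untreated arrays and are therefore not independent of each other.

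Rgs18, an RGS gene of blood-forming cells best known from platelets and megakaryocytes, measured 10.04, 10.22, 10.13 and 10.22 in LPS plus PGE arrays, 10.46, 10.23 and 10.30 in LPS arrays, and 10.39, 10.64, 10.65 and 10.47 in untreated arrays. LPS plus PGE arrays were below all untreated arrays, and LPS arrays overlapped the untreated ones. The fall with LPS plus PGE was -0.39 ± 0.080 (1.31-fold lower, limma adjusted p = 0.00334). LPS plus PGE arrays also lay just below every LPS array, but that difference did not pass (-0.18 ± 0.086, limma adjusted p = 0.147). The difference between LPS and untreated arrays was -0.21 ± 0.086 (limma adjusted p = 0.146). None of the 8 measured platelet and megakaryocyte markers passed in any comparison, and their mean level was 6.08 to 6.21 in LPS plus PGE arrays, 6.05 to 6.28 in LPS arrays and 5.96 to 6.04 in untreated arrays.

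Rgs14 encodes a larger RGS protein that also binds Ras-like GTPases and inactive Gi alpha subunits. It measured 6.69, 6.86, 7.01 and 6.77 in LPS plus PGE arrays, 7.08, 6.92 and 7.28 in LPS arrays, and 7.13, 7.33, 7.38 and 7.36 in untreated arrays. LPS plus PGE arrays were all below the untreated arrays and overlapped the LPS arrays. The fall with LPS plus PGE against untreated was -0.46 ± 0.094 (1.38-fold lower, limma adjusted p = 0.00285). The difference between LPS plus PGE and LPS arrays, -0.26 ± 0.10, did not pass (limma adjusted p = 0.0827), but without LPS replicate 2 it was -0.34 and passed (limma adjusted p = 0.0425). LPS against untreated arrays gave -0.21 ± 0.10 (limma adjusted p = 0.222).

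Rgs19, also called GAIP, acts mainly on Gi class subunits. Its level was 10.50, 10.62, 10.50 and 10.40 in LPS plus PGE arrays, 10.69, 10.64 and 10.58 in LPS arrays, and 10.79, 10.74, 10.67 and 10.93 in untreated arrays. The LPS plus PGE arrays were again below the untreated arrays, by -0.28 ± 0.069 (1.21-fold lower, limma adjusted p = 0.00916), and that call ended with array medians made equal (-0.15, limma adjusted p = 0.0963). Neither the difference between LPS plus PGE and LPS (-0.13 ± 0.074, limma adjusted p = 0.205) nor that between LPS and untreated (-0.15 ± 0.074, limma adjusted p = 0.234) passed.

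Small falls were common among genes of like level in LPS plus PGE arrays against untreated arrays. Among the 1533 genes with a mean level within 0.5 of that of Rgs14, the median change was -0.18 and 41.4% passed as lower. For Rgs16 the genes of like level had a median of -0.15, with 34.5% lower. For Rgs18 the median was -0.08, with 24.4% lower, and for Rgs19 it was -0.08, with 23.1% lower. The 4 falls among the RGS genes in this comparison ran from -0.28 to -0.48. These genes had already passed as lower, so their lying beyond such medians adds nothing. In LPS plus PGE against LPS, genes near the level of Rgs16 had a median of -0.20, with 29% lower, against its own change of -1.23. Those near the level of Rgs14 had a median of -0.20, with 33.2% lower, against its change of -0.26. For Rgs2 the genes of like level had a median of -0.05, with 4.46% passing as higher, against its rise of 1.67. Rgs2 and Rgs16 had likewise already passed in that comparison, so for them too the contrast adds nothing.

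**Figure D3:**
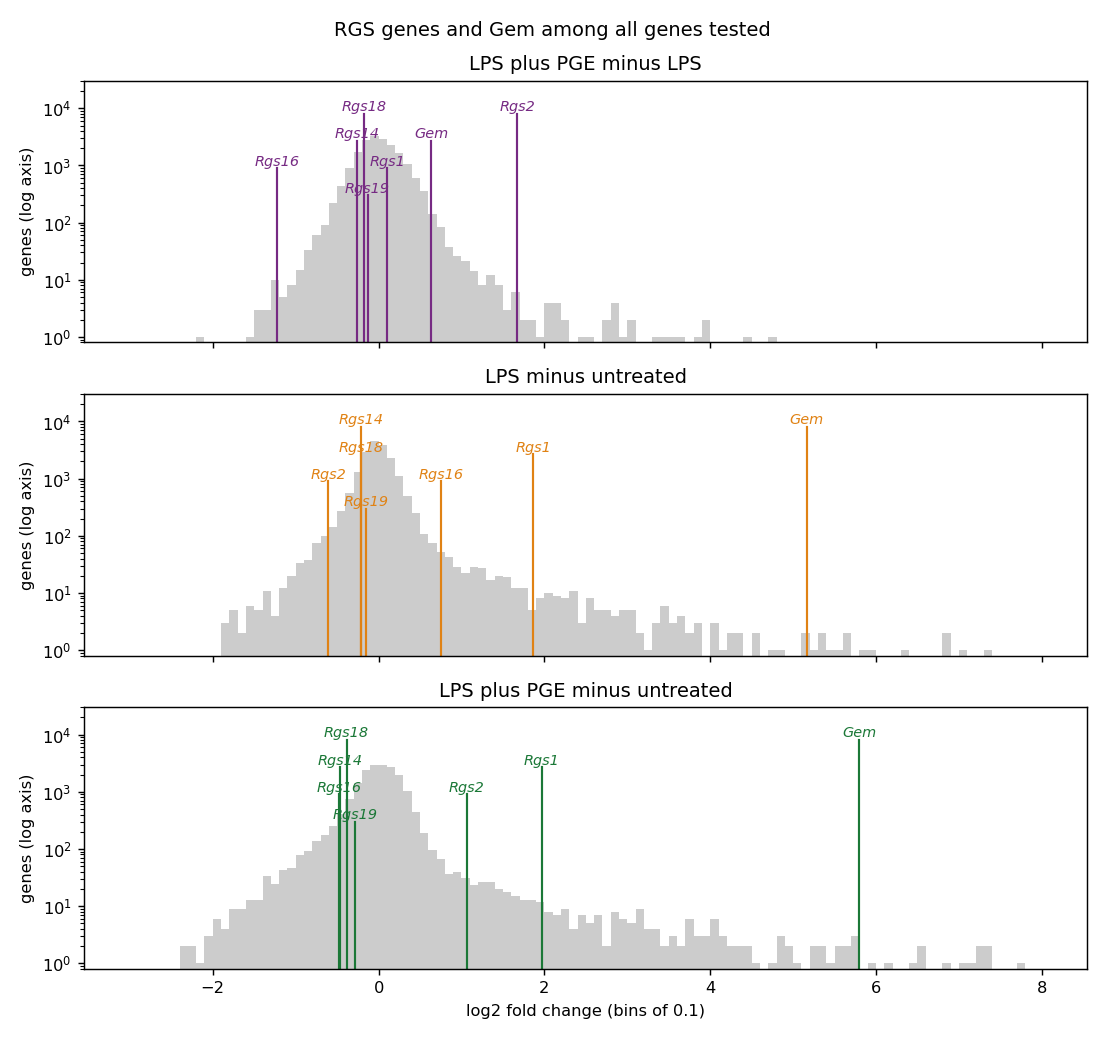
Number of genes (vertical log axis) by log2 fold change (horizontal axis, bins of 0.1) for all 18755 genes in each comparison, with lines at the RGS genes and Gem. Rgs2 and Rgs16 lie in opposite tails of LPS plus PGE minus LPS, and Gem lies in the upper tail of both comparisons with untreated arrays.

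Several of these genes are neighbours in the genome. In RefSeq's gene order, Rgs2, Rgs13, Rgs1, Rgs21 and Rgs18 follow each other on chromosome 1 with no other protein-coding gene between them. In LPS plus PGE against LPS, Rgs2 was higher, while Rgs1 and Rgs18 did not pass. In LPS against untreated, Rgs1 rose and Rgs2 fell. Rgs13, which lies between them and is known from B cells, had mean levels of 3.03 with LPS plus PGE, 2.81 with LPS and 2.84 untreated and passed in no comparison, and Rgs21 was not analysed here. Rgs16 lies elsewhere on that chromosome beside Rgs8, whose mean levels were 4.47, 4.19 and 4.24 in the same order and which passed in no comparison. Whether these changes differ from each other was not tested.

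The genes most like each strongly changed gene were found by the root mean square difference over the 11 arrays after each gene's mean was removed, among 17580 other named genes. For Rgs2 they were Tob2, an antiproliferative gene of the Tob family (difference 0.21), Itprip, which encodes a protein interacting with the inositol trisphosphate receptor (0.27), and Tent5a, which encodes a noncanonical poly(A) polymerase (0.29). In LPS plus PGE against LPS, Tent5a rose by 1.11 and Itprip by 1.02. In LPS against untreated, Tob2 fell by 0.38, Tent5a had a change of -0.40 whose call ended under 6 of 22 alternatives, and Itprip one of -0.22 that did not pass (limma adjusted p = 0.0537). For Rgs16 they were Ticam1, the adaptor TRIF of Toll-like receptor signalling (0.17), Srfbp1 (0.18) and Sap30, a subunit of a histone deacetylase complex (0.19). Sap30 changed by -1.11 with LPS plus PGE against LPS and by 0.65 with LPS against untreated, and Ticam1 by 0.72 in the second of these.

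For Rgs1 the most like genes were Zswim4 (0.17), the zinc finger gene Zfp131 (0.17) and Zfp36, which encodes the mRNA-destabilising protein tristetraprolin (0.17). Unlike Rgs1, Zswim4 passed as higher with LPS plus PGE than with LPS (0.29), a call that ended under 10 of 22 alternatives. Zfp131 (0.08) and Zfp36 (0.27) did not pass there. For Gem they were Nfkbiz, an atypical inhibitor family protein of NF-kB (0.28), the chemokine gene Cxcl10 (0.30) and the phosphatase gene Dusp5 (0.32). Dusp5 was also higher with LPS plus PGE than with LPS (0.91), whereas Nfkbiz (-0.01) and Cxcl10 (0.04) did not pass there. These likenesses are descriptions over 11 arrays that fall into 3 treatment groups.

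**Figure D4:**
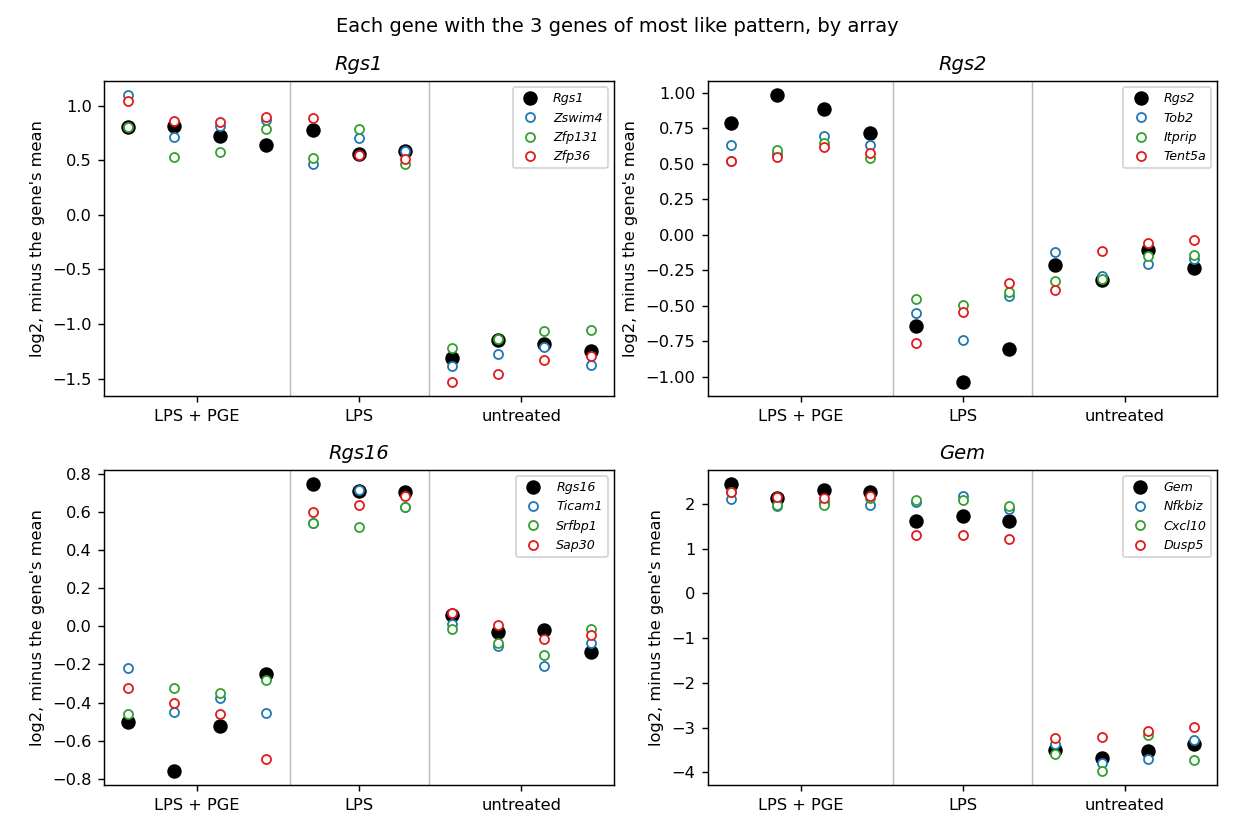
Log2 level minus the gene's mean (vertical axis) in each of the 11 arrays, for Rgs1, Rgs2, Rgs16 and Gem (filled) and the 3 genes of most like pattern (open). The genes shown with Rgs2 had their lowest group mean with LPS alone, and those shown with Rgs16 their highest.

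Among 14 other measured RGS family genes and binding proteins, 3 were higher and 1 was lower with LPS plus PGE than with LPS, with a median change of 0.13, against -0.0045 for all genes. Over all genes, 11.9% passed as higher and 12.9% as lower in that comparison, 24.7% in either direction. The 4 calls among 14 genes are near that background. Higher calls were fewer at higher levels: 503 genes passed as higher without genes below the median level (5.92), against 2225 of all genes. The 3 rises here were all of genes with group means below that level, so they and the median change are not read as particular to the family. Rgs9, known from retina and striatum, had mean levels of 5.71 with LPS plus PGE and 5.04 with LPS, a rise of 0.67 ± 0.13 (limma adjusted p = 0.00464). Its level was 4.69 in untreated arrays, and LPS plus PGE arrays were higher by 1.02 ± 0.12. Rgs9bp, whose protein anchors RGS9 in photoreceptors, was higher by 0.66 ± 0.13 with LPS plus PGE against LPS (limma adjusted p = 0.00556) and by 0.51 ± 0.12 against untreated.

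Rgs3, which encodes an RGS protein of the Gi and Gq classes, fell by -0.67 ± 0.091 with LPS plus PGE against LPS and by -0.83 ± 0.084 against untreated, with limma adjusted p-values of 0.000587 and 1.42e-05. It has 2 probe sets, and over their mean the falls were smaller, -0.40 and -0.38. The falls of Rgs3 thus came mostly from the probe set used, and the values of the other are not given here. Against untreated, LPS alone gave 1 rise among the 14, that of Rgs7bp (0.43 ± 0.12, limma adjusted p = 0.0293), which ended under 6 of 20 alternatives. LPS plus PGE gave 2 rises and 1 fall against untreated. Of all genes, 13.2% passed with LPS alone and 31.7% with LPS plus PGE against untreated.

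Proteins of other families carry an RGS homology domain, and 12 of their genes were measured. With LPS plus PGE against LPS, 1 was higher and 3 were lower (median -0.17), where 24.7% of all genes passed. The share of all genes was 13.2% in LPS against untreated and 31.7% in LPS plus PGE against untreated. The receptor kinase gene Grk3, whose protein desensitises receptors, had a mean level of 7.05 with LPS plus PGE, 7.43 with LPS and 6.91 untreated. It fell by -0.38 ± 0.063 with LPS plus PGE against LPS (limma adjusted p = 0.0019; 0.0535 after quantile normalization) and rose by 0.52 ± 0.063 with LPS against untreated (limma adjusted p = 0.000122), the 1 call of 12 there. The protein kinase A anchor Akap10 fell by -0.37 ± 0.075 (limma adjusted p = 0.00544; 0.0696 with equal array medians) in LPS plus PGE against LPS. Against untreated, LPS plus PGE gave 1 rise, that of the Wnt feedback gene Axin2 (0.48 ± 0.099), and 1 fall, that of Akap10 (-0.41 ± 0.069). Axin2 was also higher in LPS plus PGE against LPS (0.39 ± 0.11), a call that ended under 6 of 21 alternatives.

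Alpha subunits, mainly of the Gi and Gq classes, are the targets of RGS proteins, and 13 alpha subunit genes of any class were measured. With LPS plus PGE against LPS, none rose and 2 fell (median -0.03), where 24.7% of all genes passed. Gna15, a Gq class subunit of blood cells, had mean levels of 9.10 with LPS plus PGE and 9.47 with LPS (-0.37 ± 0.084, limma adjusted p = 0.0102), a call that ended with equal array medians or cyclic loess normalization. Gna11, also of the Gq class, changed by -0.46 ± 0.14 (limma adjusted p = 0.0311), a call that ended under 8 of 22 alternatives. Against untreated, LPS plus PGE gave 1 rise and 4 falls (31.7% of all genes passed), led by Gna11 (-0.81 ± 0.13), Gnal (-0.64 ± 0.12) and Gna15 (-0.48 ± 0.078). With LPS alone, where 13.2% of all genes passed, Gnal (-0.42 ± 0.13) and Gnaz (0.32 ± 0.092) passed, but these calls ended under 12 of 20 and 13 of 21 alternatives. The Gi subunit gene Gnai2 (0.0033 ± 0.051) and the stimulatory subunit gene Gnas (-0.01 ± 0.060) did not pass in LPS plus PGE against LPS.

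Of 14 beta and gamma subunit genes, 1 passed in LPS plus PGE against LPS and none in LPS against untreated. Of all genes, 24.7% and 13.2% passed there, and 31.7% in LPS plus PGE against untreated. The gamma subunit gene Gng4 had mean levels of 7.67 with LPS plus PGE, 6.33 with LPS and 6.03 untreated. It rose by 1.34 ± 0.16 with LPS plus PGE against LPS (limma adjusted p = 0.000279) and by 1.64 ± 0.15 against untreated (limma adjusted p = 5.99e-06). The difference between LPS and untreated was 0.30 ± 0.16 (limma adjusted p = 0.277). Against untreated, LPS plus PGE also gave 1 fall, of Gng2 (-0.21 ± 0.057), which ended with equal array medians or cyclic loess normalization.

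Of 9 other G protein regulators, LPS plus PGE gave 3 falls against LPS and 4 against untreated, and LPS gave 1 against untreated. In the same order, 24.7%, 31.7% and 13.2% of all genes passed in either direction, and 12.9%, 17.9% and 6.69% passed as lower. Against LPS, 28.4% of genes within 0.5 of the mean level of Gem over all arrays passed as lower. Near the level of Rgs14 that share was 33.2%. The genes that fell against LPS lie near these levels, so their number is not read as an excess. Ric8a, a chaperone of alpha subunits, was lower with LPS (-0.37 ± 0.062, limma adjusted p = 0.00154) and with LPS plus PGE (-0.51 ± 0.058, limma adjusted p = 3.33e-05) against untreated. The 3 falls against LPS were those of Ric8b, Gpsm2 and Ccdc88a (-0.20 to -0.26), and they ended under 16, 6 and 17 of 22 alternatives.

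Beside Gem, 9 genes of other RGK GTPases and of its protein partners were measured. With LPS plus PGE against LPS, 1 rose and 3 fell, with LPS against untreated 3 rose, and with LPS plus PGE against untreated 2 rose and 2 fell. The shares of all genes that passed were 24.7%, 13.2% and 31.7%, in the same order. The RGK genes Rrad and Rem2 were higher with LPS plus PGE than untreated, by 0.36 ± 0.10 and 0.52 ± 0.11, and with LPS than untreated, by 0.44 ± 0.11 and 0.39 ± 0.11. The calls with LPS ended under 4 of 22 alternatives for Rrad and 11 of 20 for Rem2, and the call of Rrad with LPS plus PGE ended without LPS plus PGE replicate 4 (limma adjusted p = 0.0551). Of the calcium channel subunit genes, Cacnb4 was higher with LPS plus PGE than with LPS (0.37 ± 0.083, limma adjusted p = 0.00942; 0.0698 after quantile normalization). Cacnb1 was lower there (-0.31 ± 0.081) and higher with LPS than untreated (0.30 ± 0.081), and its calls ended under 4 and 9 of 21 alternatives. The kinesin gene Kif9 was lower with LPS plus PGE than with LPS (-0.36 ± 0.098), a call that ended under 7 of 22. Gmip, which encodes a Gem-interacting protein, was lower with LPS plus PGE than with LPS (-0.26 ± 0.075, limma adjusted p = 0.0278). The alternatives for that call are not given here. Gmip was also lower with LPS plus PGE than untreated (-0.22 ± 0.069, limma adjusted p = 0.0324), a call that ended under 8 of 22.

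All 3 measured prostaglandin E receptor genes were lower with LPS plus PGE than with LPS, where 12.9% of all genes passed as lower. That share varied with level: it was 33.2% near the level of Rgs14, 29% near Rgs16 and 12.6% near Rgs18. Shares at the levels of the receptor genes themselves were not worked out, so these falls are not read as particular to the receptors. Against untreated cells the receptor genes went different ways. Ptger4 had mean levels of 9.62 with LPS plus PGE, 10.23 with LPS and 8.30 untreated. It was lower with LPS plus PGE than with LPS (-0.60 ± 0.091, limma adjusted p = 0.00116), and both treatments were above untreated, by 1.32 ± 0.084 with LPS plus PGE (limma adjusted p = 1.94e-07) and by 1.93 ± 0.091 with LPS (limma adjusted p = 1.93e-08). Ptger3, whose product acts through Gi class subunits, had mean levels of 5.21 with LPS plus PGE, 5.65 with LPS and 5.30 untreated. Its difference between LPS plus PGE and LPS was -0.44 ± 0.12 (limma adjusted p = 0.0195), a call that ended under 4 of 21 alternatives. Ptger2 had mean levels of 6.48 with LPS plus PGE, 6.83 with LPS and 7.17 untreated. Its fall with LPS plus PGE against LPS, -0.34 ± 0.079, ended under 3 of 22 alternatives. Against untreated it was lower by -0.68 ± 0.073 with LPS plus PGE (limma adjusted p = 2.27e-05) and by -0.34 ± 0.079 with LPS (limma adjusted p = 0.0131; 0.0563 without LPS replicate 2).

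**Figure D5:**
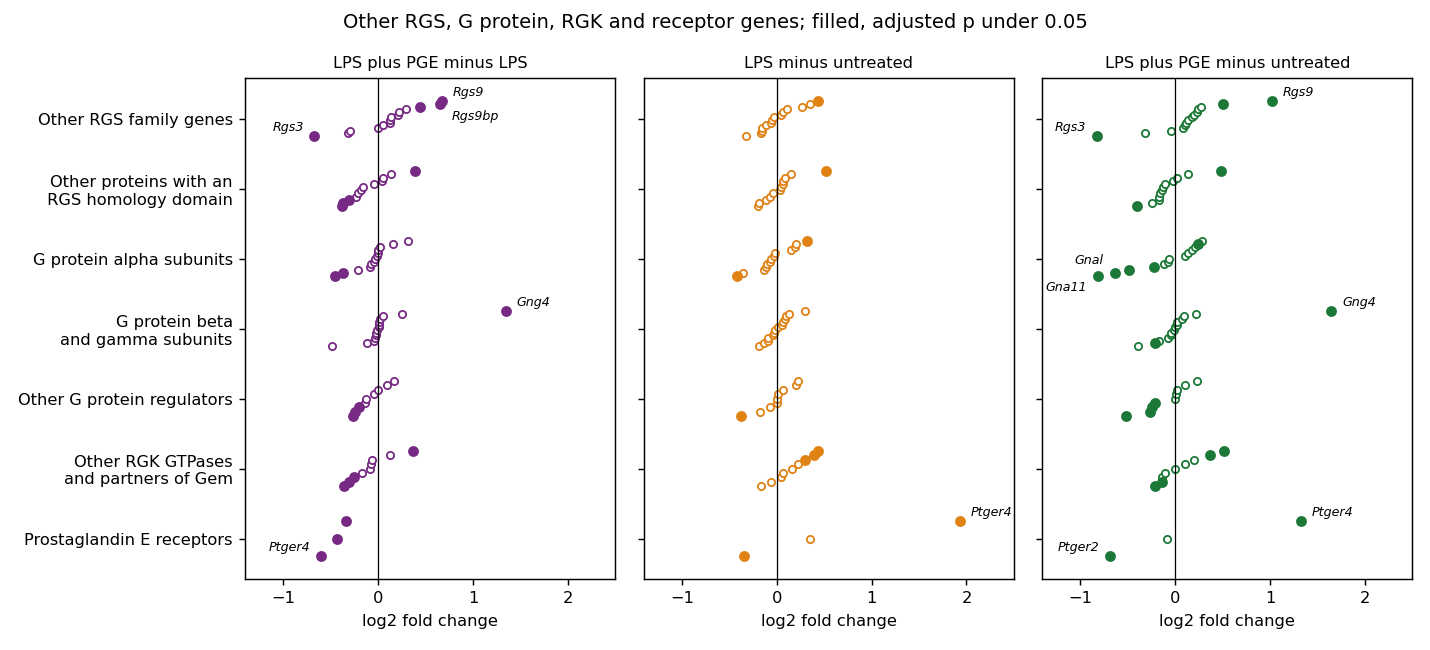
Log2 fold changes (horizontal axes) of single genes (points) in the 7 lists of related genes (rows), in each of the 3 comparisons. Filled points passed at an adjusted p under 0.05, and passed genes with a change of at least 0.6 are named. Gng4 (1.34 and 1.64), Ptger4 (1.93 and 1.32) and Rgs9 (1.02) reach past 1.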

How the data were processed

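Levels were measured in 11 arrays, and 1 further LPS array had been removed for quality before deposit, per the labels. The deposited values are log2 expression per probe set; the log2 scale was inferred from RMA, named in the submitters' processing notes beside Affymetrix Power Tools, R 2.13.1 and Partek, and from their range (1.205 to 13.81). No genome build for the array is named by the labels or headers.

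Of 35309 probe sets, 21143 carried 1 gene symbol, 1870 several and 12296 none. The highest-mean probe set per gene gave 18755 genes. A group-means model over all arrays was fitted with limma 3.58.1 in R 4.3.3 (8 residual and 3.77 prior degrees of freedom), with 3 two-sided contrasts and Benjamini-Hochberg adjustment over all genes. The fit was checked on simulated data. Figures used matplotlib 3.10.9 in Python 3.11.15.

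The genes, the lists of related genes and markers, and the tests were chosen with earlier results of these data known. Named were the 8 genes, up to 3 passed genes with the largest change per list and comparison, and the 3 genes most like each gene that changed at least 2-fold, leaving out predicted and small RNA genes. Gnai2, Gnas, Rgs8 and Rgs13, and the sets of genes within 0.5 of a level, were added after values were seen. Listed genes outside the 18755 were not analysed here. The number of arrays limits the precision. Alternatives were other normalizations, variance models, filters, probe set choices and a 2-fold threshold, fits of the compared groups alone, a block for replicate number, and leaving out arrays in turn.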

Additional observations from a re-analysis of the deposited data

How the results depend on the processing

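Of the 7 genes, 3 passed in LPS plus PGE against LPS, 4 in LPS against untreated and 7 in LPS plus PGE against untreated. Leaving out each array gave 3 to 4, 4 to 4 and 7 to 7. A 2-fold threshold gave 2, 2 and 3, since it drops smaller changes. The directions of the passed genes held under all 23 alternatives, among them every normalization. Rgs2 ranged from 1.57 to 1.83 and Rgs16 from -1.31 to -1.07 in LPS plus PGE against LPS.

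Over all genes, 4641 passed in LPS plus PGE against LPS, against 1899 after quantile and 2173 after cyclic loess normalization, 134 at 2-fold, and 2945 to 4455 with each array left out (2945 without LPS replicate 3). LPS against untreated gave 2483, or 362 at 2-fold (1925 to 2364 with an array left out). LPS plus PGE against untreated gave 5946, or 3897 after cyclic loess and 557 at 2-fold (4701 to 6143). Equal array medians moved the median of all genes to 0.15 and 0.14 in the comparisons with LPS plus PGE, and split the calls into 5850 higher and 718 lower against LPS (2225 and 2416 as deposited) and 5747 and 1724 against untreated (2587 and 3359). Without genes below the median level (5.92) the split was the opposite, 503 higher and 2842 lower against LPS and 999 and 3720 against untreated. Rgs9, Rgs9bp, Axin2 and Cacnb4, reported as higher with LPS plus PGE than with LPS, have all 3 group means below that level. The cause was not tested.

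Same-numbered arrays of different groups deviated together at over 0.1 in 7 of 10 pairs and in 0 of 30 pairs of other numbers, and in 18 of 20 cases the best correlated array had the same number, a hint from the data only. The numbers were not taken as pairing. With replicate number as a block, 3, 4 and 7 of the genes and 4698, 2454 and 6124 of all genes passed.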
